A study of Mus musculus with 6 samples.

Results

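The MAP kinase cascade genes and the dual-specificity phosphatase (DUSP) genes were followed through 6 lists of promoter acetylation. The members were the protein-coding genes named in at least 1 of the lists whose symbol starts with Mapk, Map2k, Map3k, Map4k, Mapkapk or Dusp, followed by a digit. There were 52 of them among the 9700 protein-coding genes that had an interval of any kind in any list, 39 kinases and binding partners and 13 DUSP genes. The RefSeq gene table held 76 genes with such symbols, so 68.4% of the family was listed, beside 44.3% of all protein-coding genes. Being listed chose the members, so this share is a description only.

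The mark was acetylation of lysine 9 of histone H3 (H3K9ac), which is found at promoters of active genes, measured by ChIP-seq, the sequencing of DNA that an antibody to the mark brings down. Epithelial cells were taken from the distal part of the intestine of C57BL/6 mice, for which the labels name no genetic alteration. Germ-free mice (raised without microbes), mice colonized with Escherichia coli as their single bacterium (E. coli-monoassociated) and conventionally housed mice were compared, each with 2 libraries. The sources used here do not give the age of the mice, the strain of E. coli or the length of colonization. The labels do not say that the libraries of a group came from separate mice, so the spread between them may be technical.

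MAP kinases stand at the end of kinase cascades that carry growth factor and stress signals into the cell. MAP4 kinases and small GTPases act on MAP3 kinases, these phosphorylate MAP2 kinases, and MAP2 kinases phosphorylate both a threonine and a tyrosine of the ERK, JNK and p38 kinases. The DUSP phosphatases remove these phosphates, and several DUSP genes are themselves transcribed in response to the cascade. In the intestinal epithelium ERK signalling is known for its part in proliferation, and JNK and p38 for their part in responses to stress and to bacterial products.

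Intervals were called and listed separately for every library, and a gene was called in a library where an interval lay within 1 kb of its transcription start site. The lists differed in length within groups as well as between them, with 4430 and 17094 intervals in the germ-free libraries, 1988 and 870 in the E. coli libraries and 3117 and 15352 in the conventional libraries (replicates 1 and 2). The labels state 20 M reads of 50 bp per library. The background pileup behind the lists, in extended reads per base, ran from 0.381 to 0.733. The lowest enrichment ran from 3.62-fold to 4.28-fold. Fold values are ratios of pileup to background with 1 added to each, so they are lower than reads divided by background. Weaker enrichment is not in the lists, so a promoter without an interval may still carry the mark. All 12 epithelial marker genes had a promoter interval in at least 1 library, 9 of them in an E. coli library and 6 in all 6 libraries. None of 12 lymphoid and myeloid markers and none of 14 markers of stroma, endothelium and muscle had one in any library.

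Promoter intervals were called at 48 of the 52 members (92.3%, beside 83.5% of the 9700 listed genes). The number of members called rose with the length of the list, except between the 2 longest lists. In the germ-free libraries 18 and 41 members were called, which is 34.6% and 78.8%, beside 24.8% and 66.9% of the listed genes. In the E. coli libraries 4 and 1 members were called, 7.69% and 1.92%, beside 9.49% and 4.22%. In the conventional libraries 8 and 42 members were called, 15.4% and 80.8%, beside 20.5% and 74.2%. The counts of the E. coli libraries thus lay below those of the other 4 libraries, as did their list lengths, and the germ-free and conventional counts overlapped. With 2 libraries per group, an exact two-sided permutation test cannot give a p below 0.333, and no test was made over members chosen with these results known.

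**Figure D1:**
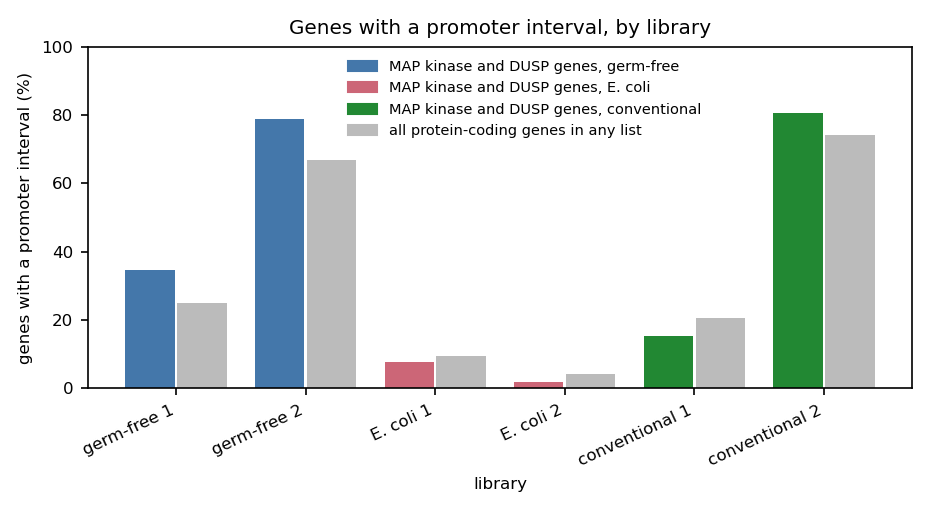
Share of genes with a promoter interval (percent, y axis) in each of the 6 libraries (x axis). Coloured bars stand for the 52 MAP kinase and DUSP genes and grey bars for the 9700 protein-coding genes with an interval in any list. The members' share ranged from 1.92% in E. coli replicate 2 to 80.8% in conventional replicate 2, and was above the grey bar in both germ-free libraries and conventional replicate 2 and below it in the other 3.

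No member was called in all 6 libraries, while 2.25% of listed genes were. Over the 5 libraries left without E. coli replicate 1 the count was 1, and without E. coli replicate 2 it was 2. Of the 52 members 3 were called in 5 libraries (Mapk3, Map2k2, Mapk1ip1), 4 in 4 (Dusp11, Dusp16, Map3k2, Mapk1ip1l), 12 in 3, 18 in 2, 11 in 1 and 4 in none. The 2 long lists, germ-free replicate 2 and conventional replicate 2, shared 35 members (67.3%, beside 58.3% of listed genes). A further 6 members were called in the first of them and not the second, and 7 in the second and not the first. The call in 1 of the shorter lists went with a higher rank in the long ones. The members called in both long lists and also in a shorter list (19) had a median rank percentile of 86.4 in each, where 100 is the strongest interval of a list, and the 16 called in the long lists alone had 59.1 and 61.1. Genes called in germ-free replicate 2 were also split by a call in germ-free replicate 1 alone. Those called in both had a median percentile of 86.4 over all genes and 81.1 over members, and the others 59.1 in each. This order is therefore not particular to the family.

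**Figure D2:**
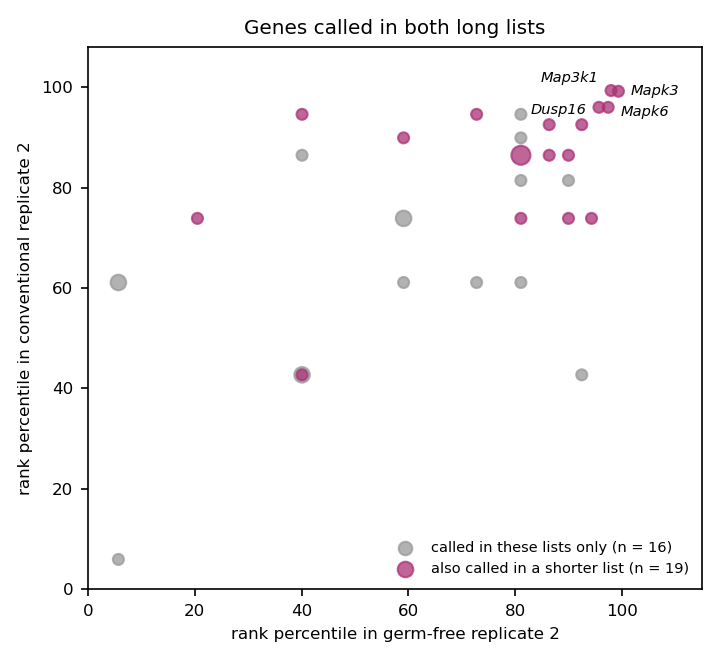
Rank percentile of the strongest promoter interval in germ-free replicate 2 (x axis) and conventional replicate 2 (y axis) for the 35 members called in both, with 100 the strongest interval of the list and larger circles where members coincide. Purple circles mark the 19 members also called in a shorter list, with medians of 86.4 on both axes, and grey circles the 16 called in these lists alone, with medians of 59.1 and 61.1. Mapk3, Map3k1, Mapk6 and Dusp16 lay at the upper right.

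Among the MAP kinases, Mapk3 (ERK1) had the strongest promoter intervals of the members in 4 of the 5 libraries that called it. The values that follow are the authors' fold enrichment over background at the strongest promoter interval, with the extended reads stacked there, and are read within a list. Mapk3 starts at position 126759626 of chromosome 7 on the plus strand of mm10. Its intervals reached 11.0-fold (18 reads) and 15.8-fold (24 reads) in the germ-free libraries, 8.29-fold (13 reads) in E. coli replicate 1, and 12.7-fold (17 reads) and 15.9-fold (21 reads) in the conventional libraries. E. coli replicate 2, the shortest list, had no interval there. All 5 intervals lay downstream of the start site and all overlapped the interval of E. coli replicate 1, chr7:126759875-126760128. The rank percentiles of Mapk3 were 96.7, 99.3, 88.3, 97.1 and 99.2.

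Among the stress kinases, calls outside the long lists were few. Mapk8 (JNK1) had 4.04-fold in germ-free replicate 1, which is the lowest value in that list, 6.97-fold in germ-free replicate 2 and 7.97-fold in conventional replicate 2. Mapk9 (JNK2) was called in conventional replicate 2 alone, at 6.52-fold. Of the p38 genes, Mapk13 (p38 delta) was called at 4.04-fold and 4.43-fold in the germ-free libraries and 6.52-fold in conventional replicate 2. Mapk14 (p38 alpha) had 5.70-fold and 6.52-fold in the 2 long lists, and Mapk11 (p38 beta) had 4.35-fold in conventional replicate 2. The p38 genes therefore had no promoter call in an E. coli library, although Mapk13 had an interval in E. coli replicate 2 just outside the window, in an exon 1738 bp downstream of the start (4.28-fold, 5 reads). Mapk13 also had intervals just beyond the window in germ-free replicates 1 and 2 (4.62-fold and 6.33-fold) and in conventional replicate 1 (6.37-fold).

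The atypical and large MAP kinases were uneven. Mapk6 (ERK3), whose promoter intervals were shared with the neighbouring gene 4933433G15Rik, had 4.62-fold and 11.4-fold in the germ-free libraries and 10.9-fold in conventional replicate 2. Mapk7 (ERK5) at 4.35-fold and Mapk4 (ERK4) at 6.52-fold were called in conventional replicate 2 only. Mapk10 (JNK3), Mapk12 (p38 gamma) and Mapk15 were in no list. Over the 13 MAP kinase genes of the RefSeq table, 10 were listed, and Mapk3 was the single one called in an E. coli library.

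**Figure D3:**
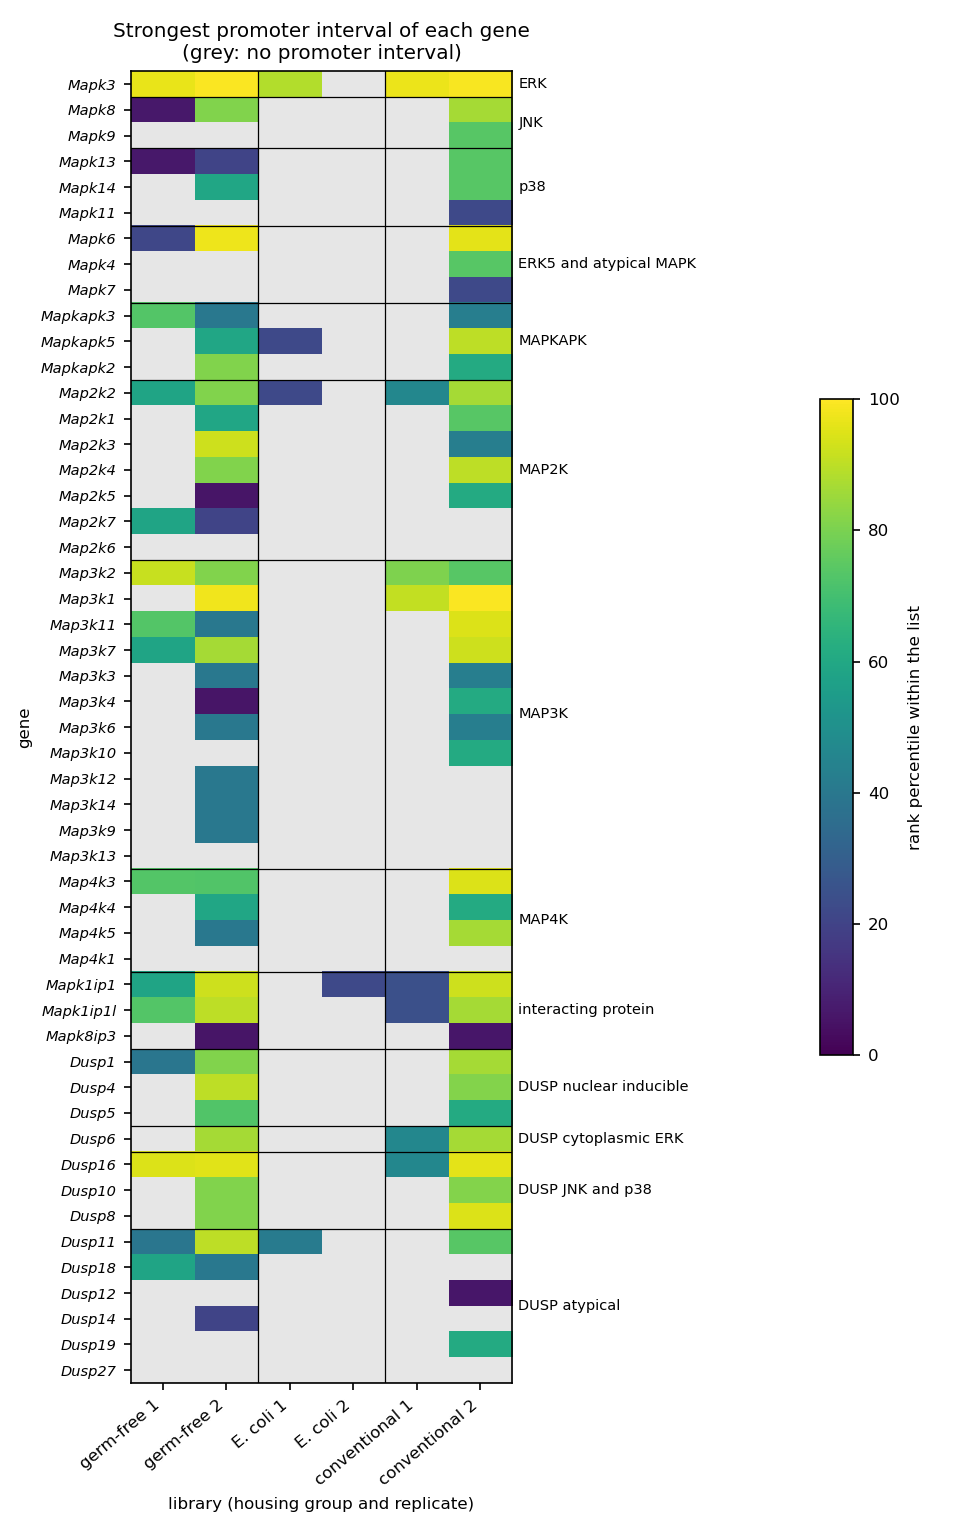
Rank percentile (colour, 100 the strongest interval of a list) of the strongest promoter interval of the genes described here (rows, grouped by role) in the 6 libraries (columns). Grey cells have no promoter interval. The E. coli columns hold 4 and 1 coloured cells, and most cells are coloured in the columns of germ-free replicate 2 and conventional replicate 2.

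The MAP2 kinases were called mainly in the long lists. Map2k2 (MEK2), a direct activator of ERK, was the member of this tier with calls in 5 libraries. Its values were 5.77-fold and 6.97-fold in the germ-free libraries, 4.73-fold in E. coli replicate 1, and 5.66-fold and 7.97-fold in the conventional libraries, on 7 to 10 reads. Its strongest intervals lay upstream of the start site at position 81105947 of chromosome 10, and that of E. coli replicate 1 spanned chr10:81105598-81105743. Map2k1 (MEK1), which acts on the same kinases, was called in the long lists alone at 5.70-fold and 6.52-fold. Map2k3, which activates p38, had 8.87-fold and 5.07-fold there, Map2k4, which activates JNK and p38, 6.97-fold and 8.69-fold, and Map2k5, the activator of ERK5, 3.80-fold and 5.79-fold. The first value for Map2k5 is the lowest in its list. Map2k6 had 3 intronic intervals in germ-free replicate 2 and no promoter interval.

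Map2k7, which activates JNK, and the atypical phosphatase gene Dusp18 were called in both germ-free libraries and neither conventional library. These were 2 of the 18 members called in both germ-free libraries (11.1%), beside 2.47% of all genes so called. Map2k7 had 5.77-fold and 4.43-fold, and its 2 intervals did not overlap each other. Dusp18 had 5.77-fold and 5.07-fold, in intervals shared with 4921536K21Rik. Both were weak calls on 6 to 9 reads, and both genes were also absent from the E. coli promoter calls. The count was 0 with only intervals of a -log10 q of 5 or more kept, 12 without conventional replicate 2 and 6 without germ-free replicate 1. No member was called in both conventional libraries and neither germ-free library, out of 8 called in both conventional libraries, beside 3.25% of all genes. That count was 2 without germ-free replicate 2 and 7 without conventional replicate 1. No member was called in both E. coli libraries, beside 248 of the 9700 listed genes, so few members would be looked for there. Of these 248 genes, 0% had no call in either germ-free library, and likewise 0% for the conventional libraries.

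Among the MAP3 kinases, Map3k1 and Map3k2 were the genes called in both conventional libraries. Map3k1 (MEKK1), upstream of JNK and ERK, had 12.0-fold (18 reads) in germ-free replicate 2, 8.49-fold (11 reads) in conventional replicate 1 and 16.7-fold (22 reads) in conventional replicate 2. The last value had a percentile of 99.3 and was the highest fold of any member in any list. Germ-free replicate 1 and both E. coli libraries had no interval within 1 kb, but in 2 of these 3 libraries one lay just beyond the window. In germ-free replicate 1 an interval of 5.19-fold began 1004 bp into the gene, and in E. coli replicate 1 one of 5.92-fold (9 reads) began 1028 bp into it. Both lay inside the wide intervals of the conventional libraries, which ran to 1485 and 1516 bp downstream.

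Map3k2 (MEKK2) was called at 8.08-fold and 6.97-fold in the germ-free libraries and 7.08-fold and 6.52-fold in the conventional libraries, and in neither E. coli library. Map3k7 (TAK1), which links inflammatory receptors to JNK, p38 and NF-kappa-B, had 5.77-fold and 7.60-fold in the germ-free libraries and 9.41-fold in conventional replicate 2. Map3k11, from intervals shared with Pcnxl3, had 6.35-fold, 5.07-fold and 10.1-fold in the same 3. The remaining MAP3 kinases were called in 1 or 2 libraries at 3.80-fold to 5.79-fold: Map3k3, Map3k4 and Map3k6 in both long lists, Map3k9, Map3k12 and Map3k14 in germ-free replicate 2, and Map3k10 in conventional replicate 2. Of the MAP4 kinases, Map4k3 had 6.35-fold and 6.33-fold in the germ-free libraries and 10.1-fold in conventional replicate 2, and Map4k4 and Map4k5 were called in the long lists alone.

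The MAP kinase-activated kinases and the partner proteins held 2 of the 5 members called in an E. coli library. Mapkapk5 (also called PRAK) had 5.70-fold in germ-free replicate 2, 4.73-fold (7 reads) in E. coli replicate 1 and 8.69-fold in conventional replicate 2, and no call in the other 3. Mapk1ip1 was the single member called in E. coli replicate 2, at 4.99-fold (6 reads). It had 5.77-fold and 8.87-fold in the germ-free libraries and 4.95-fold and 9.41-fold in the conventional libraries. All of its promoter intervals were shared with Ppp2r2d, which encodes a regulatory subunit of protein phosphatase PP2A and starts on the opposite strand, so the calls cannot be given to either gene. Mapkapk3 was called in both germ-free libraries (6.35-fold and 5.07-fold) and conventional replicate 2 (5.07-fold). Mapkapk2, a kinase that p38 activates, had 6.97-fold and 5.79-fold in the long lists. Mapk1ip1l had 6.35-fold and 8.24-fold in the germ-free and 4.95-fold and 7.97-fold in the conventional libraries. Mapk8ip3, a JNK scaffold, was called at the lowest values of both long lists (3.80-fold and 3.62-fold).

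Of the 13 DUSP genes, 12 had a promoter interval. Dusp16, a phosphatase for JNK and p38, had the highest rank among them in both germ-free libraries and conventional replicate 2. It starts at position 134792628 of chromosome 6 on the minus strand, and had 9.23-fold (15 reads) and 10.1-fold (15 reads) in the germ-free libraries and 5.66-fold (7 reads) and 10.9-fold (14 reads) in the conventional libraries. Neither E. coli list held an interval there. Its interval in germ-free replicate 2, chr6:134790813-134792626, was 1814 bp long and ran downstream from the start site. Dusp10 and Dusp8, which also act on JNK and p38, were called in the long lists alone, at 6.97-fold in germ-free replicate 2 for both and at 7.24-fold and 10.1-fold in conventional replicate 2.

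The phosphatases of ERK showed a like pattern of long-list calls. Dusp6, a cytoplasmic ERK phosphatase, had 7.60-fold in germ-free replicate 2 and 5.66-fold and 7.97-fold in the conventional libraries. It was not called in germ-free replicate 1 or in an E. coli library. Dusp1, a nuclear phosphatase induced by stress, had 5.19-fold and 6.97-fold in the germ-free libraries and 7.97-fold in conventional replicate 2. Dusp4 and Dusp5, also nuclear and inducible, were called in the long lists alone at 5.79-fold to 8.24-fold. Dusp11, an atypical phosphatase that acts on RNA, was the DUSP gene called in an E. coli library. Its values were 5.19-fold and 8.24-fold in the germ-free libraries, 5.33-fold (8 reads) in E. coli replicate 1 and 6.52-fold in conventional replicate 2, and conventional replicate 1 had none. Dusp12 had the lowest value of its list (3.62-fold, 4 reads in conventional replicate 2), Dusp14 had 4.43-fold in germ-free replicate 2, and Dusp19 had 5.79-fold in conventional replicate 2.

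**Figure D4:**
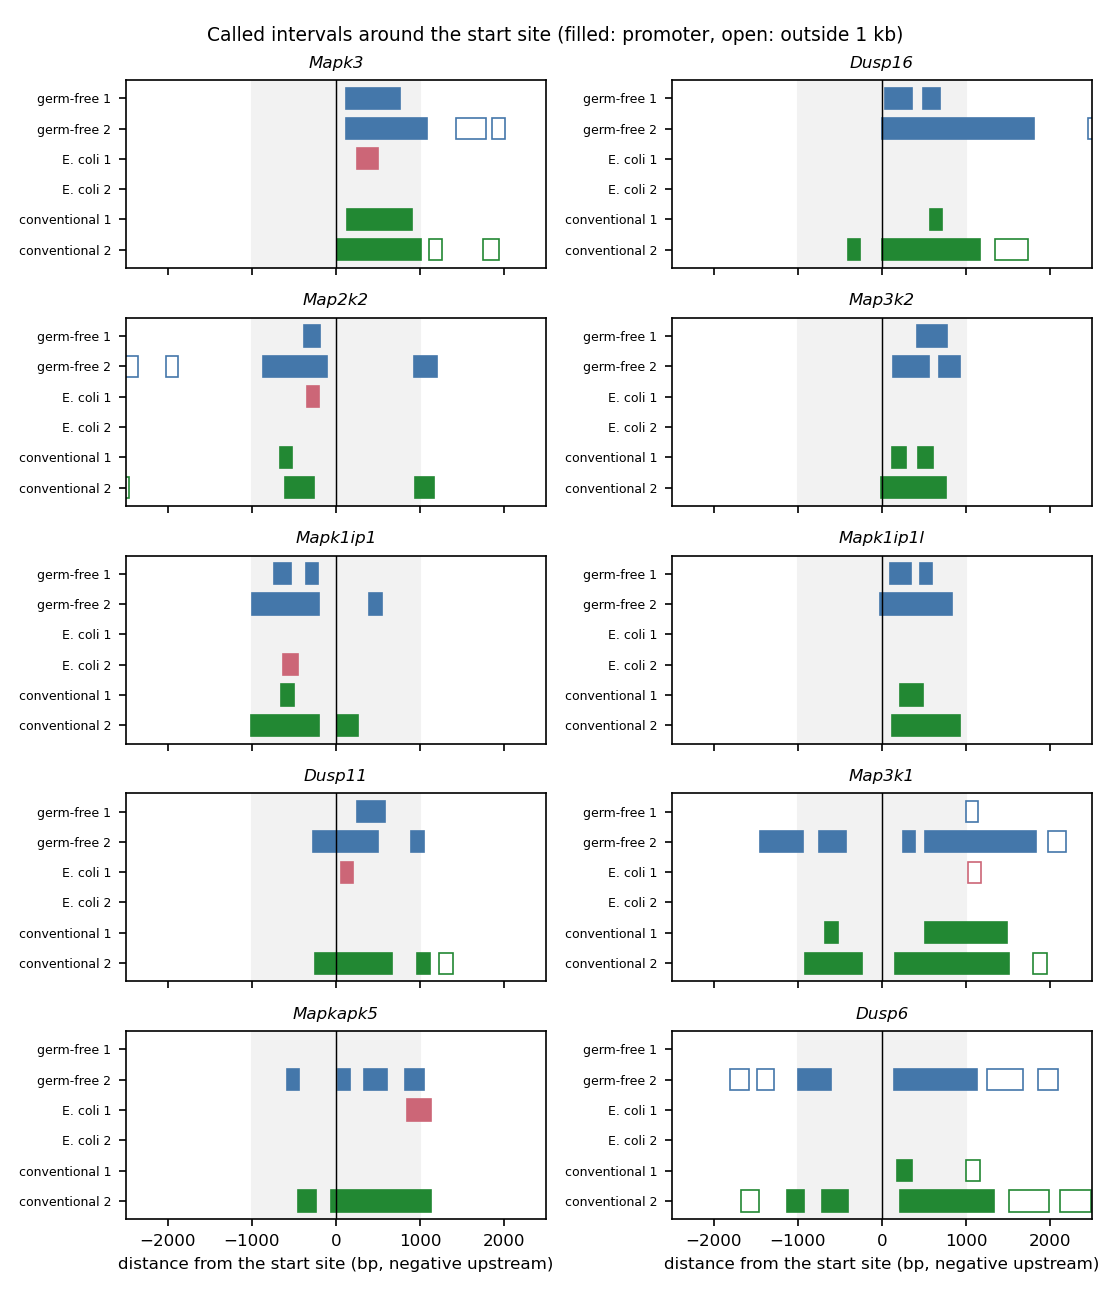
Called intervals of 10 genes by distance from the transcription start site (bp, x axis, negative upstream) in the 6 libraries (rows). Filled boxes are promoter intervals, open boxes are intervals outside the shaded 1 kb window, and colours give the housing group. The left column holds the 5 genes called in an E. coli library. The right column holds the 5 genes called in both conventional libraries and neither E. coli library, of which Map3k1 has an open box in E. coli replicate 1.

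The design allowed 1 strict reading of the E. coli comparison, a call in both libraries of 1 group and in neither E. coli library. Of the 18 members called in both germ-free libraries, 14 were called in neither E. coli library (77.8%, beside 65.6% of all genes called in both germ-free libraries). They included Dusp1, Dusp16, Dusp18, Map2k7, Map3k2, Map3k7, Map3k11, Map4k3, Mapk6, Mapk8, Mapk13, Mapk1ip1l and Mapkapk3. The exceptions were Mapk3, Map2k2, Dusp11 and Mapk1ip1. In 16 of the 18 the intervals of the 2 germ-free libraries overlapped each other. Of the 8 members called in both conventional libraries, 5 were called in neither E. coli library (62.5%, beside 61.9%), namely Dusp16, Dusp6, Map3k1, Map3k2 and Mapk1ip1l. Over all members 5 were called in at least 1 E. coli library (9.62%, beside 11.2% of listed genes). With 18, 8 and 52 members behind them, these shares are not read as apart from those of all genes, and the shorter E. coli lists cannot be told apart from the housing of the mice. When each list was kept to its 868 strongest intervals, 1 member of 2 called in both germ-free libraries was in neither E. coli library, beside 33.5% of all genes so called. For the conventional libraries it was also 1 member of 2, beside 36.3%. With the window widened to 2.5 kb it was 14 of 20 members for the germ-free libraries (70%, beside 64.6%). For the conventional libraries it was then 4 of 9 (44.4%, beside 60.7%). In the 1 kb window, the germ-free count was 36 without germ-free replicate 1. The conventional count there was 37 without conventional replicate 1.

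Shown are promoters of high-ranking members of these patterns, with promoter intervals in both libraries of a group and in neither E. coli library. Map3k2, which ranked above most of these members, had no promoter sequence entry and is not shown. At Map3k1, E. coli replicate 1 had an interval just beyond the 1 kb window (5.92-fold). The sequences are from RefSeq (GRCm38.p6, the assembly behind mm10) and run 5′ to 3′ on the strand of the gene, 250 bases before to 50 bases after the annotated start. Capitals mark the GC box letters GGGCGG or their reverse complement CCGCCC, and the CCAAT box letters CCAAT or ATTGG.
Dusp16, chr6:134792579-134792878, minus strand: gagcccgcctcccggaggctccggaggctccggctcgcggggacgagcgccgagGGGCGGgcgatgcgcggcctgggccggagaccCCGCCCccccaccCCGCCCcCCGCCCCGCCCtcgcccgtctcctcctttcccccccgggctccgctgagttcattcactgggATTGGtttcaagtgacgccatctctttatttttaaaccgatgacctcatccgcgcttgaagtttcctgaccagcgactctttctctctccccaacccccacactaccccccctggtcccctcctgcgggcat
Dusp6, chr10:99262981-99263280, plus strand: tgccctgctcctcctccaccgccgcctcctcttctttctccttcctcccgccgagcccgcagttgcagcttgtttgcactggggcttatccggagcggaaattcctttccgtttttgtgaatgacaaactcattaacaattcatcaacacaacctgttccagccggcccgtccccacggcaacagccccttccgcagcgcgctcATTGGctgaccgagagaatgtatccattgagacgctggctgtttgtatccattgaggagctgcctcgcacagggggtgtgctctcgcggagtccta
Mapk1ip1l, chr14:47298024-47298323, plus strand: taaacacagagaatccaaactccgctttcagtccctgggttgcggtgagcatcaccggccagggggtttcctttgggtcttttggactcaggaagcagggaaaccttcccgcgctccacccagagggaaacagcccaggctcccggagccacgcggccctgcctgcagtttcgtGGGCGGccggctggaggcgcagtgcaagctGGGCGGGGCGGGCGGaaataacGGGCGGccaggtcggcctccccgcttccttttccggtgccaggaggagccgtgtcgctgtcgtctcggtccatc
Map4k3, chr17:80727976-80728275, minus strand: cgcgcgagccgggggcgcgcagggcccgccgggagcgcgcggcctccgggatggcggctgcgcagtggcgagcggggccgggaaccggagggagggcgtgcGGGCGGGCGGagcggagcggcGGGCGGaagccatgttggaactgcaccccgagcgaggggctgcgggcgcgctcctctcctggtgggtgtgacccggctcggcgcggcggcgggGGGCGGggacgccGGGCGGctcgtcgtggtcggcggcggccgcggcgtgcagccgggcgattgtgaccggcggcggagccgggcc
Map3k1, chr13:111808944-111809243, minus strand: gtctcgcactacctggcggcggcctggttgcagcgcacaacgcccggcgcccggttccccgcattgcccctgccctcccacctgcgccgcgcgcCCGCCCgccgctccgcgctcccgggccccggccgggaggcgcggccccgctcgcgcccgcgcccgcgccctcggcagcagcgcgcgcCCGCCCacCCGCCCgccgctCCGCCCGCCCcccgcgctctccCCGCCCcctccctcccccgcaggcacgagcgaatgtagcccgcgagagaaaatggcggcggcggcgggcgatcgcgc
The GC box letters were in 4 of these 5, Dusp6 being the exception, and adjoining copies overlapped in some. The marked intervals lay mostly beyond these bases, on the transcribed side. At Dusp16 18, 48 and 53 of the 300 bases were inside an interval in germ-free replicates 1 and 2 and conventional replicate 2, and at Dusp6 0 were in any library. At Map4k3 all 300 were covered in conventional replicate 2.

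Promoter sequences were matched for 44 of the 52 members, and 8 had no entry, among them Dusp4, Dusp19, Map3k2, Map4k4, Mapk3, Mapk4 and Mapk1ip1. The members' promoters were rich in GC and CpG. Their median GC content was 65.2%, beside 56.3% over 17492 protein-coding genes and 61.7% over genes with a promoter interval. Their median ratio of observed to expected CpG was 0.837, beside 0.576 over all genes and 0.804 over genes with a promoter interval. The median CpG ratio was 0.672 for the 13 members called in 0 or 1 library, 0.842 for the 16 called in 2 and 0.915 for the 15 called in 3 or more. GC box letters, searched on both strands, were in 30 of 44 (68.2%), beside 46.3% of all promoters and 67.4% of promoters with an interval. CCAAT letters were in 13 (29.5%), beside 39.0%, and the TATA letters TATAAA in 0, beside 13.3% of all and 6.33% of marked promoters. The members' base composition thus lay near that of marked promoters in general.

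Of the 5 members called in an E. coli library 3 had a promoter sequence (Dusp11, Map2k2, Mapkapk5). These 3 held the palindrome known to be bound by the factor NRF1, and none of the other members with a sequence did. The motif was singled out from all those searched after these values were seen. The 50 bases around it are printed 5′ to 3′ on the strand of the gene, with the motif in capitals, from RefSeq (GRCm38.p6). None of these windows overlapped the promoter interval of E. coli replicate 1 at its gene. Those intervals were chr6:85961467-85961612 (Dusp11), chr10:81105598-81105743 (Map2k2) and chr5:121544755-121545051 (Mapkapk5).
Dusp11, chr6:85961651-85961700, minus strand: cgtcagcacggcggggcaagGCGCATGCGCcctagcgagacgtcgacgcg
Map2k2, chr10:81105858-81105907, plus strand: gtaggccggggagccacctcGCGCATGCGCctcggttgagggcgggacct
Mapkapk5, chr5:121546010-121546059, minus strand: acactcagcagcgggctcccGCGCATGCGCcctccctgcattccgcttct
The letters of the motif, GCGCATGCGC, were in 3 of 44 members (6.82%), in 1.32% of all promoters and in 2.46% of promoters with an interval. Over all genes E. coli replicate 1 called 17 of 231 promoters with the letters (7.36%) and 4.30% of those without. Among genes called in both long lists E. coli replicate 1 called 13.9% of those with the letters and 15.9% of those without. E. coli replicate 2 called 1.30% of all promoters with the letters and 1.88% without, and 2.61% and 7.07% among genes called in both long lists.

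Most promoter intervals lay on the transcribed side of the start site, for members and for all genes. Of the 178 promoter intervals of members 62.4% lay downstream of the start site, 29.8% upstream and 7.87% across it, beside 65.8%, 23.5% and 10.7% of the 25978 promoter intervals of all genes. Their median length was 291.5 bp, beside 281 bp, and their median pileup was 7 reads, beside 8. Over members and libraries, the strongest interval rested on 4 to 24 extended reads with a median of 8.5, so single calls near the lower end carry wide counting error.

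The genes around the cascade were read from lists of receptors, adaptors, GTPases, scaffolds and brakes, stress inputs, effectors and other phosphatases, 85 in all. These were picked by name with earlier results of these data known, whether or not they had a promoter interval. The members and the 9700 listed genes were taken for having an interval of any kind, so the shares are not like for like. Of the 85 genes, 75 had a promoter interval in any library (88.2%, beside 83.5% of the 9700). The 85 genes were called 28 and 70 times in the germ-free libraries (32.9% and 82.4%, beside 24.8% and 66.9%). The E. coli libraries called 15 and 12 (17.6% and 14.1%, beside 9.49% and 4.22%). The conventional libraries called 31 and 70 (36.5% and 82.4%, beside 20.5% and 74.2%). An E. coli library called 19 of them (22.4%), and 7 were called in all 6 libraries (8.24%), beside 11.2% and 2.25% of the 9700 listed genes. For the 52 members the counts were 5 and 0, and the difference between the lists was not tested. These 7 included the receptor gene Erbb3, the transcription factors Jun, Fos, Fosl2 and Ets2, and Ppp2ca, the catalytic subunit of PP2A. Jun, a target of JNK, had 9.23-fold and 13.3-fold in the germ-free libraries. It had 5.33-fold and 5.70-fold in the E. coli libraries and 7.78-fold and 15.9-fold in the conventional ones.

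For 10 members (Dusp10, Dusp18, Map2k3, Map3k4, Map3k10, Map3k11, Map3k12, Map4k5, Mapk6, Mapk1ip1) every promoter interval was shared with a neighbouring gene that starts nearby. Dusp27, Map2k6, Map3k13 and Map4k1 had intervals elsewhere only. In no list were Map3k5, Map3k8, Map3k15, Map3k19, Map3k21, Map4k2, Mapk8ip1, Mapk8ip2, Map3k7cl, the 3 MAP kinase genes named above, the inducible Dusp2, the ERK phosphatase genes Dusp7 and Dusp9, and 8 atypical DUSP genes (Dusp3, Dusp13, Dusp15, Dusp21, Dusp22, Dusp23, Dusp26, Dusp28), 23 genes in all. Map3k20 was listed under its older symbol Zak, which the rule does not take, with 6.35-fold and 6.33-fold in the germ-free libraries and 5.07-fold in conventional replicate 2.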

How the data were processed

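H3K9ac ChIP-seq of 6 samples, 2 per group, was used as deposited lists of called intervals, 1 list per library. The submitters' processing notes name the tools Bowtie (1.2.0) and MACS2 (2.1.1.20160309) and the build mm10. Use of an input control and the calling options: not given in the sources used here. The deposited lists gave the pileup at the summit (signal, coverage by extended reads), fold enrichment as a ratio over background, −log10 p and −log10 q. The ratio has 1 added to both pileup and background. For germ-free replicate 2 the deposited values stood 1 column off their header, with no pileup. Columns were therefore read by position, and reads were computed from the spacing of its fold values.

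Lines repeating an interval were merged. A gene was called where an interval assigned to it by the authors came within 1 kb of its start site. Of 10621 names, 10567 matched the RefSeq table (GRCm38.p6). Ranks are percentiles of −log10 p within a list. No test was made; the counting was tested on simulated data. Members, roles and gene lists were chosen with earlier results of these data known. Values in every library were given for members called in an E. coli library. Up to 8 per pair of groups were added by mean rank, called in both libraries of 1 group and neither of the other. Promoters of high-ranking members with a sequence entry were printed. Other members were named with ranges or values. Counts cover all members, and some single genes are not reported here. Alternatives were the window, the authors' promoter class, thresholds on −log10 q, fold and overlap, equal list lengths, unshared promoters and leaving out each library. Unshared here means with no other protein-coding gene, so promoters shared with a noncoding gene only were kept. Python 3.11.15, pandas 2.3.3, NumPy 2.4.6 and matplotlib 3.10.9 were used.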

Additional observations from a re-analysis of the deposited data

How the results depend on the processing

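Of 134 alternative values 93 stayed within 1.5 times the reported count and 41 did not. Those that stayed include many counts of 0 that remained 0, which a stricter setting cannot lower. They also include the authors' promoter class, which gave the reported count throughout. The tally is therefore no measure of robustness. With a -log10 q of 5 or more, members called numbered 7 and 22 (germ-free), 1 and 0 (E. coli) and 3 and 27 (conventional). With each list kept to its 868 strongest intervals they numbered 3, 4, 1, 3 and 6 in both germ-free libraries, E. coli replicate 1 and both conventional libraries. With 200 bp of overlap required, they numbered 8 in germ-free replicate 1, 1 and 0 in the E. coli libraries and 3 in conventional replicate 1. A fold of 5 or more left 2 and 0 in the E. coli libraries. The 0.5 kb window left 4 in conventional replicate 1, the 2.5 kb window gave 2 in E. coli replicate 2, and unshared promoters gave 0 there. Members called in the germ-free pair and no E. coli library numbered 4 (q), 1 (equal lists) and 7 (200 bp). For the conventional pair and no E. coli library there were 3 (0.5 kb), 2 (q), 1 (equal lists) and 2 (200 bp). For the germ-free pair and no conventional library there were 1 (0.5 kb), 0 (q), 1 (fold), 0 (equal lists), 1 (unshared) and 0 (200 bp). Leaving out 1 library gave 14 (lowest) to 36 (without germ-free replicate 1), 5 to 37 (without conventional replicate 1) and 2 to 12 (without conventional replicate 2) for these patterns in that order. It gave 0 to 7 (without conventional replicate 1) for the conventional pair and no germ-free library, and 0 to 2 (without E. coli replicate 2) for members called in every library kept. Each of these rises follows from the construction, since fewer lists set the pattern; for the other settings the cause was not tested. No paired analysis was possible because the results are counts of calls that come from no test. Calls near the list floors rest on 4 to 6 reads.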

Other observations

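Outside promoters, 27 of the 52 members had 101 further intervals: 48 in introns (18 members), 22 in the upstream class of the authors (9 members), 22 intergenic (9 members) and 9 in exons (6 members). The authors assigned each of these to a member, and some of them to a neighbouring gene as well. The gene they act on need not be among those.

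Map3k13, an activator of JNK that had no promoter interval, had 10 intervals in 4 libraries, all in the authors' intergenic class and upstream of the start site the authors used, position 21891969 of chromosome 16. The RefSeq gene begins further upstream, at 21824056, so 8 of the 10 lay inside it. The strongest, in germ-free replicate 2, was 10.8-fold at chr16:21826097-21827596, and intervals of germ-free replicate 1 and both conventional libraries overlapped it. Map4k1, a kinase known from blood cells, had 6 intervals in 4 libraries upstream of its start, all of which the authors also assigned to Actn4, the strongest at chr7:28970509-28970826 in germ-free replicate 2. Neither E. coli library had an interval at either place. Map2k6, an activator of p38, had 3 intronic intervals in germ-free replicate 2 alone, and Dusp27 had 1 distal interval in each of the long lists. At Map3k1, germ-free replicate 2 had 6 intronic intervals between 1982 and 5942 bp downstream, the largest number outside a promoter of any member in any of the 6 lists.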
